A study of Mus musculus with 2 samples.

Results

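The 8 genes described here encode endothelial receptors for 3 groups of secreted factors: the VEGF receptors Kdr, Flt1 and Flt4 with their co-receptors Nrp1 and Nrp2, the Tie receptors Tek and Tie1, and the apelin receptor Aplnr. They were chosen by name, and all 8 are listed in both count tables, among 14976 genes that the tables share. Their transcripts were counted, as unique molecular identifiers (UMIs), in 2 droplet single-cell libraries of CD45-/CD31+ sorted cells, 1 from pooled orthotopic E0771 mammary tumors (tumor-associated ECs, TECs) and 1 from pooled normal mammary glands (normal ECs, NECs). E0771 is a mouse mammary carcinoma line, CD31 (Pecam1) an endothelial surface protein and CD45 (Ptprc) a marker of leukocytes. The labels give the normal library as C57BL/6 mice of 6 to 8 weeks, and give no strain or age for the tumor library. A cell was read as endothelial with 200 or more genes, under 10% mitochondrial UMIs, no UMI of Ptprc, Myh11, Epcam or Cspg4 and at least 1 UMI of Cdh5 or Pecam1, and in the tumor library with more UMIs of Cdh5 and Pecam1 than of the cancer cell markers Rhox5, Hmga2 and Krt8. This left 4940 of 9047 barcodes as NECs and 261 of 704 as TECs.

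KDR (VEGFR2) carries most of the mitogenic signal of VEGF-A in ECs, FLT1 (VEGFR1) binds VEGF-A tightly with weak kinase output and also exists as a secreted decoy, and FLT4 (VEGFR3) is the receptor of the lymphangiogenic ligands VEGF-C and VEGF-D. The neuropilins bind class 3 semaphorins as well as VEGF, with NRP1 best known from arteries and NRP2 from veins and lymphatics. TEK (TIE2) is held active by ANGPT1 in quiescent vessels, with ANGPT2 as a context-dependent antagonist and TIE1 as its partner without a ligand of its own, and APLNR is the G protein-coupled receptor of apelin in sprouting and venous endothelium.

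Each condition has 1 library, so no test was made and tumor cannot be told apart from library. Levels are a gene's UMIs, summed over cells, in every 1000000 UMIs of those cells (counts per 1000000, CPM), and the brackets after them hold 95% intervals that cover counting error only. NECs held 17327221 UMIs in all (median 2976.5 per cell) and TECs 4646103 (median 16989). Of the barcodes, 3 occurred in both libraries, none of them among the cells kept. Cdh5 and Pecam1, which chose the cells, stood at 1151 and 980.2 CPM in TECs and at 984 and 1174 CPM in NECs. The sum of the 3 cancer cell markers, which the choice of cells limited, was 6.24 CPM in TECs. Some labels of the normal library name TECs and E0771, while its title and the deposited design give normal glands. A list of 8 salivary gland genes summed to 2134 CPM in NECs and to 144979 CPM in the 698 Epcam-positive cells of the same library, while 9 epithelial genes summed to 120.4 CPM in NECs. The tumor table lists 1 of the 8, Aqp5, with 0 UMIs in TECs. Without the normal clusters led by salivary genes or holding mural markers, the log2 ratio of Kdr between TECs and NECs was -1.47.

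Kdr (ENSMUSG00000062960) lies on the minus strand at chr5:75932827-75978458 in GENCODE M21 (GRCm38), and Flt1 (ENSMUSG00000029648) on the same strand at chr5:147561604-147726011. Flt4 is at chr11:49609263-49652739, Nrp1 at chr8:128358604-128503363, Nrp2 at chr1:62703285-62818695, Tek at chr4:94739289-94874976 and Aplnr at chr2:85136225-85139923, each on the plus strand, and Tie1 at chr4:118471191-118490061 on the minus strand. Nrp2 shares its locus with the antisense gene Gm29083, which the normal table lists and the tumor table does not. RefSeq promoters (GRCm38.p6) were found for 7 of the 8 genes, Aplnr not among them. The 250 bases before the RefSeq start are shown for Kdr, Flt1 and Tek, the tyrosine kinase receptors whose levels differed most between TECs and NECs. Capitals mark GC boxes (GGGCGG) and ETS-type letters (AGGAAG) on either strand.
Kdr, chr5:75978456-75978705, minus strand: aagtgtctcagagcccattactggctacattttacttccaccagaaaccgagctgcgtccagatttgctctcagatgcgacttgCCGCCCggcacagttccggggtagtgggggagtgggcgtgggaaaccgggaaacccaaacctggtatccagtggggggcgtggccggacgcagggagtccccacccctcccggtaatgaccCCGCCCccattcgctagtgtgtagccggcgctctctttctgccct
Flt1, chr5:147726012-147726261, minus strand: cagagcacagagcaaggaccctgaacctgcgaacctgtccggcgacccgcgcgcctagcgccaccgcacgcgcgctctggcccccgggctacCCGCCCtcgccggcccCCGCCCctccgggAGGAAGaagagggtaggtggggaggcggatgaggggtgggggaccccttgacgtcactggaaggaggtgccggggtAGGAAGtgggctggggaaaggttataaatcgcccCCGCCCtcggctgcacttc
Tek, chr4:94739039-94739288, plus strand: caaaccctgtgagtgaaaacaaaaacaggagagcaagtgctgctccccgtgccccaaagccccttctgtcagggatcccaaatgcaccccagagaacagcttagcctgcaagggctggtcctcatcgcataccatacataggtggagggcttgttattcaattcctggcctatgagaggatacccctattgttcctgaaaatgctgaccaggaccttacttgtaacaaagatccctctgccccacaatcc
The Kdr window holds 2 GC boxes and the Flt1 window 3, and 61.6% and 70.4% of their bases are G or C. Flt1 also holds 2 AGGAAG matches. The Tek window holds neither and is 51.2% G or C, close to the median of 52.4% over 32851 RefSeq promoters. Of these promoters, 32.7% hold GGGCGG and 29.5% AGGAAG, with matches on either strand counted. Of the other letters searched in the same way, the ETS-type letters CGGAAG are in 13.6% of all promoters. The core of hypoxia response elements, ACGTG, is in 16.6% of them, and the GATA-type letters AGATAA are in 9.99%. None of these is in the 3 windows shown.

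In TECs, 5 of the 8 receptors took at least 2-fold fewer of all UMIs than in NECs, and none took 2-fold more, a direction that holds for CPM and, for Nrp1 alone, also for the unscaled count per cell given further on. The 5 were Kdr, Flt1, Nrp1, Nrp2 and Tek, while Tie1, Flt4 and Aplnr lay within 2-fold. Of 13061 genes with at least 10 UMIs, 26.0% were lower by 2-fold or more and 11.2% higher. The median log2 ratio was -1.45 over the 8 receptors and -0.25 over all genes tested. Among the 1665 genes with a mean of 100 CPM or more, 15.7% were lower and 13.3% higher by 2-fold.

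Kdr stood at 1144 CPM (1128 to 1159.6) in NECs and 417 CPM (398 to 436) in TECs, a log2 ratio of -1.46 (-1.52 to -1.39). Flt1 was the most counted receptor of both libraries, at 1985 CPM (1964 to 2006) in NECs and 718 CPM (694 to 743) in TECs, with a nearly equal log2 ratio of -1.47 (-1.52 to -1.42). The principal signalling receptor and the receptor that also serves as decoy were lower by like amounts, 2.74-fold and 2.76-fold. Flt4 was low in both libraries, with 54.9 CPM (51.5 to 58.5) in NECs and 46.7 CPM (40.7 to 53.4) in TECs, intervals that overlap, and its log2 ratio of -0.23 (-0.45 to -0.02) turned to 0.05 in cells thinned to 1900 UMIs. Lymphatic ECs, where FLT4 is best known, named no cluster. A list of 8 lymphatic genes summed to 365 CPM in NECs, of which Ccl21a made 315, and to 23.0 CPM in TECs. Ccl21a stood at 6521 CPM in the normal cells like high endothelial venules described further on. In the venous-like NECs the list summed to 441 CPM, so it does not measure lymphatic cells alone.

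Nrp1 differed most of the 8, at 1148 CPM (1132 to 1164) in NECs and 203 CPM (190.2 to 216) in TECs, 5.66-fold lower. Nrp2 stood at 207 CPM (200.1 to 214) and 76.0 CPM (68.3 to 84.3), 2.72-fold lower. The interval of the log2 ratio of Nrp1, -2.60 to -2.41, lies below that of Nrp2, -1.61 to -1.29. Nrp2 also stood at 156 CPM (147 to 166) in the 133 tumor-library cells with cancer markers and no UMI of Cdh5 or Pecam1. The other 7 receptors were at 1.77 CPM or less there. Lists of fibroblast and mural genes summed to 308 and 168 CPM in these cells, and which of them carried Nrp2 was not tested. The part of RNA from such cells in the TEC value of Nrp2 was not tested either. The 3 cancer markers, which the choice of TECs itself limited, summed to 1236 CPM in those cells and 6.24 CPM in TECs. The 2 Tie receptors also parted. Tek stood at 186 CPM (179 to 192) in NECs and 55.5 CPM (49.0 to 62.7) in TECs, 3.34-fold lower, and Tie1 at 283 CPM (275 to 291) and 196 CPM (183 to 209), 1.44-fold lower. Aplnr differed little, at 177 CPM (171 to 184) and 153 CPM (142 to 164), and its log2 ratio of -0.22 (-0.34 to -0.10) turned to 0.06 as a mean over cells and to 0.24 without the removal of cells by Ptprc, Myh11, Epcam and Cspg4.

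**Figure D1:**
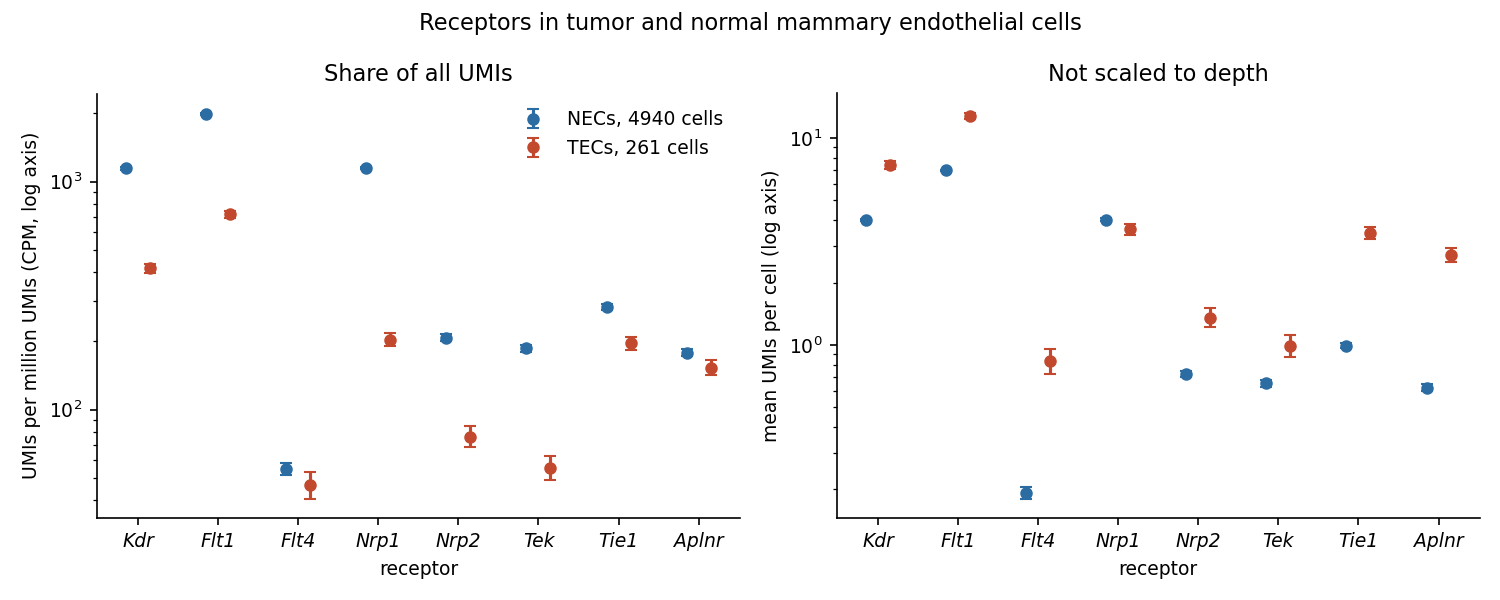
Levels of the 8 receptors in NECs (blue) and TECs (red), as CPM (left) and as mean UMIs per cell (right), both on log axes, with bars for 95% counting intervals. On the left each TEC point sits below its NEC point, by 5.66-fold for Nrp1 and 1.16-fold for Aplnr, a sign that other settings turn for Flt4 and Aplnr, while on the right 7 of the 8 TEC points sit above.

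These are shares of a cell's RNA, and the 2 libraries differ in depth, since a TEC held 17801 UMIs on average and an NEC 3508. Counted per cell without scaling, Kdr had 7.42 UMIs in a TEC and 4.01 in an NEC, Flt1 12.8 and 6.96, and Nrp1 3.61 and 4.03. Without scaling, the log2 ratio of every gene is higher by 2.34, and 81.0% of the 13061 genes were 2-fold higher in TECs and 6.65% lower. Nrp1 was the only receptor with fewer UMIs per TEC than per NEC, and Flt4, Tie1 and Aplnr were more than 2-fold higher on that scale. RNA content and sequencing depth of a cell cannot be told apart here, so the direction of 4 of the 5 differences, Nrp1 excepted, holds for the share of RNA and not for the unscaled count. At an equal 1900 UMIs in each of 3831 NECs and 239 TECs, Kdr was detected in 74.6% (73.2 to 75.9) of NECs and 44.8% (38.4 to 51.3) of TECs, and Nrp1 in 78.0% (76.6 to 79.3) and 26.4% (20.9 to 32.4). Before thinning the shares were 81.9% and 82.8% for Kdr and 85.0% and 71.6% for Nrp1. Tie1 was detected in 40.3% and 33.5% and Flt4 in 9.97% and 9.62%, and the intervals of the NEC and TEC shares overlap for both. The highest share of Epcam-positive cells without Cdh5 or Pecam1 that held a UMI of any of the 8 at this depth was 3.96%, for Flt1, with a median depth of 10806 UMIs before thinning.

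Of the 6 other endothelial genes fixed beside Cdh5 and Pecam1, 0 were past 2-fold between TECs and NECs and their median log2 ratio was 0.15. Claudin-5 (Cldn5), a tight junction protein, was level at 833 and 833 CPM, and Egfl7 was at 2156 CPM in TECs and 1659 in NECs. The extremes were Ecscr at a log2 ratio of 0.97 and the transcription factor Erg at -0.99, from 35.0 CPM in NECs to 17.6 in TECs. Scaled to the sum of these 6 genes, the log2 ratios of Kdr and Nrp1 were -1.65 and -2.69. Set against the capillary-like NECs described next alone, Aplnr was at a log2 ratio of -1.07, Kdr at -1.59 and Nrp1 at -2.68.

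Clustered without the receptors and their pathway genes, the NECs formed 17 clusters, of which 2 were arterial-like (665 cells, with Bmx, Fbln5 and Sox17), 3 venous-like (448 cells, with Nr2f2, Lbp and Vwf) and 2 capillary-like (1385 cells, with Gpihbp1, Timp4 and Aqp7). Single clusters were mitotic-like (88 cells) and like high endothelial venules (HEV-like, 94 cells, led by Glycam1). A shallow cluster of 107 cells (median 809 UMIs) was led by the salivary genes Smr3a and Bpifa2, and 7 clusters with 2153 cells, 43.6% of NECs, were not named. Among arterial-, venous- and capillary-like cells, Kdr and Nrp1 were highest in capillary-like cells by more than 2-fold. Nrp2 and Aplnr were lowest in arterial-like cells by more than 2-fold, and the other receptors stayed within 2-fold. An unnamed cluster given further on held more Kdr and Nrp1 than the capillary-like cells.

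**Figure D2:**
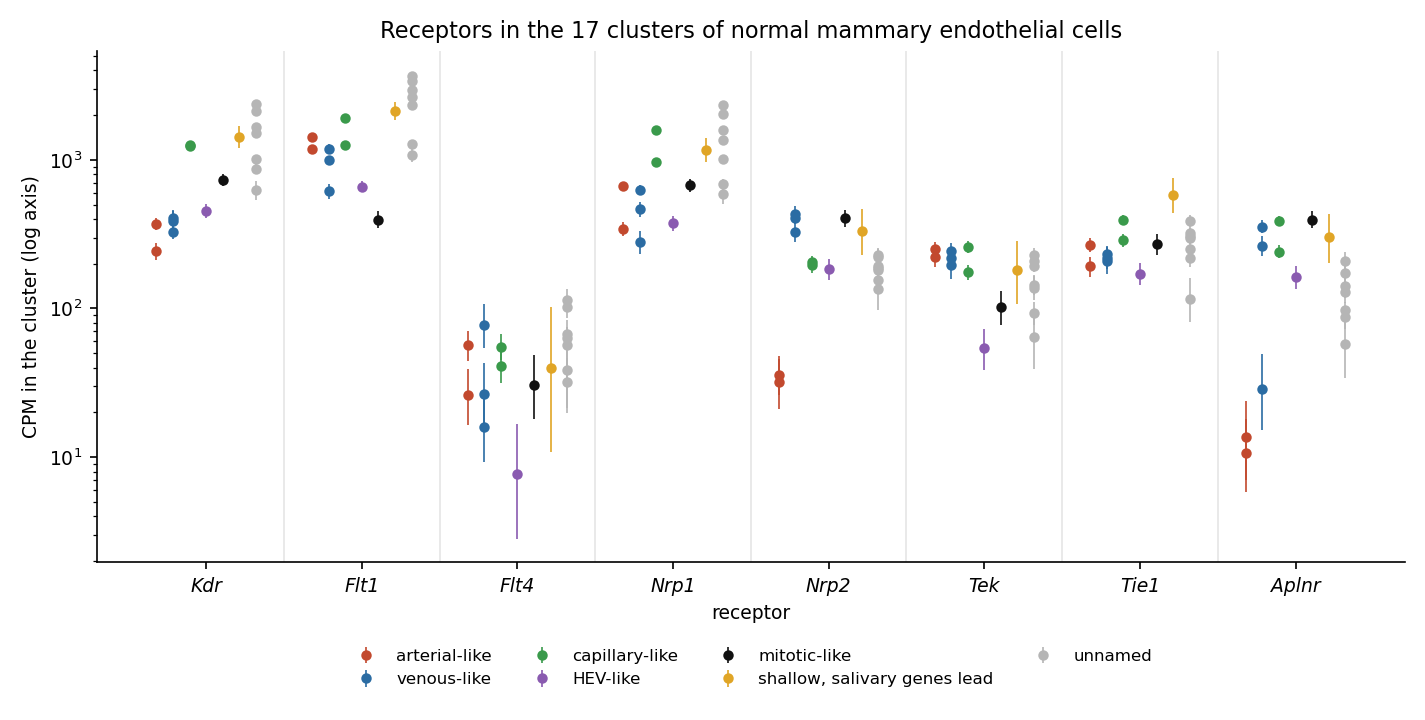
CPM of each receptor (log axis) in each of the 17 NEC clusters, coloured by vessel type, with bars for 95% counting intervals. Kdr is at 1243 and 1264 CPM in both capillary-like clusters and at most 403 CPM in every arterial- and venous-like cluster, and Aplnr is at 10.7 and 13.6 CPM in the arterial-like clusters.

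Kdr stood at 1252 CPM (1215 to 1291) in capillary-like, 362 CPM (337 to 388) in venous-like and 319 CPM (296 to 344) in arterial-like NECs. It was thus 3.92-fold lower in arterial-like and 3.46-fold lower in venous-like than in capillary-like cells, and no arterial- or venous-like cluster reached a capillary-like cluster. Flt1 varied less, with 1604 CPM (1562 to 1648) in capillary-like, 1326 CPM (1278 to 1375) in arterial-like and 971 CPM (929 to 1014) in venous-like NECs, all within 2-fold. Flt4 lay between 32.1 and 48.8 CPM in the 3 types, and the arterial-like and capillary-like intervals overlap.

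The neuropilins were arranged differently from each other. Nrp1 followed Kdr, with 1303 CPM (1264 to 1342) in capillary-like cells against 533 CPM (503 to 565) in arterial-like and 504 CPM (474 to 535) in venous-like cells, the latter 2 with overlapping intervals. Nrp2 was ordered from venous-like at 398 CPM (372 to 426) through capillary-like at 200.4 CPM (186 to 216) to arterial-like at 34.2 CPM (26.9 to 42.9). It was 11.6-fold lower in arterial-like than in venous-like cells and 1.99-fold higher in venous-like than in capillary-like cells, just short of 2-fold. At 1900 UMIs a cell, 51.7% of venous-like, 29.1% of capillary-like and 5.40% of arterial-like cells held a Nrp2 UMI.

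Tek stood close together in the 3 vessel types, at 239 CPM (219 to 260.5), 226 CPM (206 to 247) and 221 CPM (206 to 238) in arterial-, venous- and capillary-like cells, with overlapping intervals and a log2 ratio of 0.11 (-0.05 to 0.28) between arterial- and capillary-like cells. Tie1 was highest of the 3 types in capillary-like cells at 346 CPM (326 to 366), against 238 and 224 CPM in arterial- and venous-like cells. Aplnr showed the widest range of the 8. It stood at 319.6 CPM (301 to 339) in capillary-like, 259 CPM (238 to 282) in venous-like and 11.9 CPM (7.75 to 17.4) in arterial-like NECs, 26.9-fold lower in arterial-like than in capillary-like cells. After thinning to 1900 UMIs, 1.68% of arterial-like cells held an Aplnr UMI, against 0.294% of Epcam-positive cells and 39.7% of capillary-like cells. The venous-like clusters differed among themselves, with 356 CPM in the cluster with Ackr1 and Lbp, 263 in the cluster led by Sele and Selp, and 28.7 in the cluster with Htr2b and Gria3 among its leading genes.

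In counts, 4 of the 8 receptors (Kdr, Nrp1, Nrp2 and Aplnr) were lower by 2-fold or more in arterial-like than in capillary-like NECs and 0 higher, where 8.95% and 9.18% of 11169 genes were. Between venous-like and capillary-like NECs, 2 (Kdr and Nrp1) were lower and 0 higher, against 8.77% and 11.1% of 11312 genes. Between arterial-like and venous-like NECs, 2 (Nrp2 and Aplnr) were lower and 0 higher, against 10.8% and 8.71% of 11080 genes. The median log2 ratios of the 8 were -0.91, -0.61 and 0.08, beside -0.06, -0.08 and 0.02 over all genes tested. The comparisons share their cells, and the 3 classes differ in depth, with medians of 2930, 4038.5 and 2188 UMIs in arterial-, venous- and capillary-like cells. When cells were instead sorted by their own marker UMIs, 2 receptors (Nrp2 and Aplnr) stayed past 2-fold between arterial and capillary cells. Between venous and capillary cells 0 did, and Kdr was at log2 ratios of -0.78 and -0.70 in these 2 comparisons. The share of all genes past 2-fold in that sort is not given here. The differences of Nrp2 and Aplnr were smaller in that sort, with Aplnr at a log2 ratio of -2.77 between arterial and capillary cells, in place of -4.75, and -2.47 between arterial and venous cells, in place of -4.45. Nrp2 was at -1.18 in place of -2.55 and at -1.70 in place of -3.54.

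**Figure D3:**
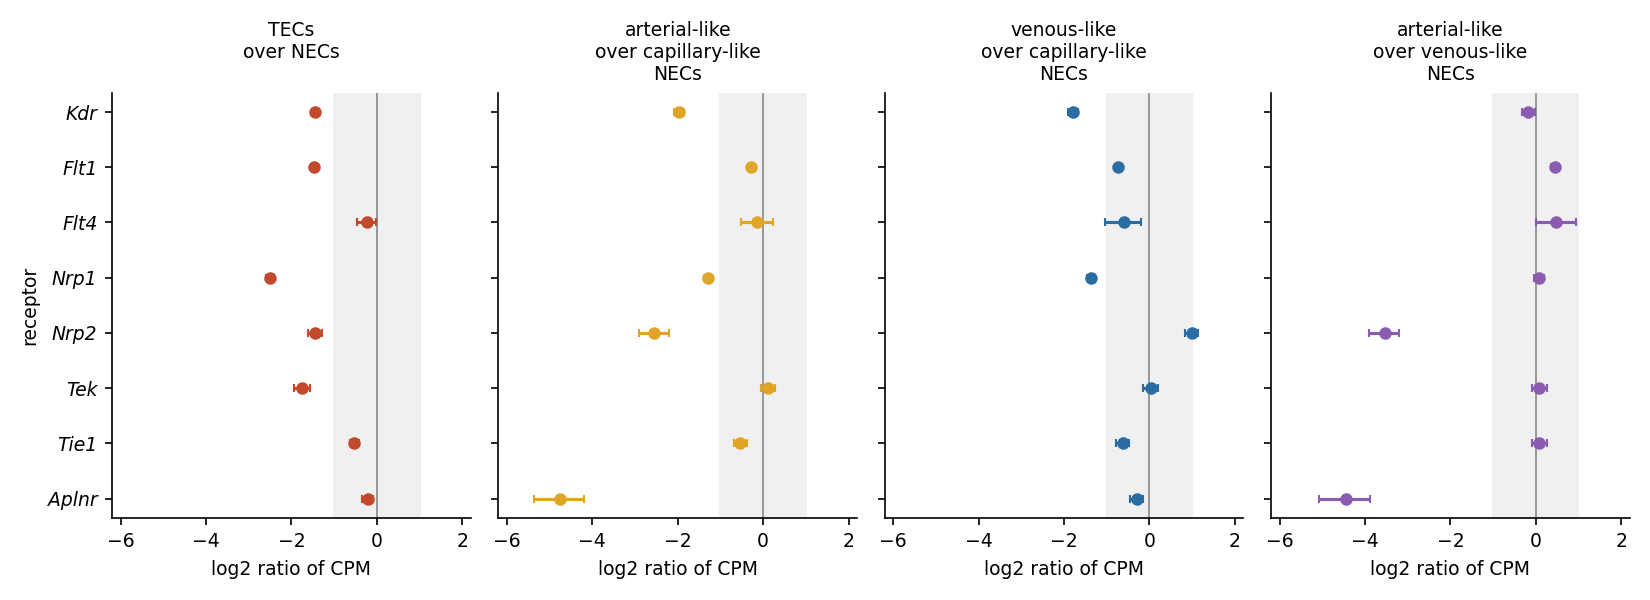
log2 ratios of CPM of the 8 receptors in the 4 comparisons, with bars for 95% counting intervals and grey for differences under 2-fold. The 5 points left of the grey in TECs over NECs include Tek, which lies near 0 in the 3 comparisons of vessel types.

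Among the other NEC clusters, an unnamed cluster of 428 cells, led by Meis2, Plscr2 and Tbxa2r, had the highest level of 3 receptors, with 2362 CPM of Kdr, 3665 of Flt1 and 2346 of Nrp1. Flt4 peaked at 113 and 102 CPM in the 2 unnamed clusters with Pacsin1 and Penk among their leading genes. The HEV-like cells were low in Flt4 (7.68 CPM) and Tek (53.8 CPM), each the lowest of the 17 clusters and below the venous-like cells (by 4.18-fold and 4.20-fold). The Flt4 value there rests on 6 UMIs. Tie1 was highest, at 581 CPM, in the shallow cluster led by salivary genes, on 58 UMIs. The venous-like cluster with Htr2b and Gria3 stood apart from the other venous-like clusters in Flt4 as well, at 77.3 CPM against 16.0 and 26.4 CPM.

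The NEC cluster named mitotic-like, which was not made of mitotic cells alone, stood at the extremes in Flt1 and Aplnr. Flt1 stood at 396 CPM (347 to 450.3), the lowest of the 17 clusters, beside 731 CPM (664 to 803) of Kdr, 405 CPM (355 to 459) of Nrp2 and 396 CPM (347 to 450.3) of Aplnr, the highest Aplnr level of the 21 clusters, with an interval that overlaps that of a capillary-like cluster at 386 CPM. This cluster also held 8 of the tip cell markers. At a finer resolution, chosen after the data had been seen, the NECs formed a tip-like cluster of 59 cells and a mitotic-like cluster of 30, not an exact split of these 88 cells, with Flt1 at 278 and 534 CPM, Kdr at 786 and 682 CPM and Aplnr at 433 and 369 CPM. Both held less Flt1 and more Aplnr than all NECs, and Flt1 was lower in the tip-like than in the mitotic-like cluster.

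The makeup of each receptor family, in percent of its own UMIs, does not depend on the scaling of a library, though it compares genes whose transcripts may be captured unequally. Flt1 made up 62.4% (61.9 to 62.8) of the VEGF receptor UMIs of NECs and 60.8% (59.5 to 62.1) of those of TECs, and Kdr 35.9% (35.5 to 36.3) and 35.3% (34.0 to 36.5), so that the ratio of Flt1 to Kdr hardly moved while both were lower. Flt4 made up 1.73% (1.62 to 1.84) and 3.95% (3.45 to 4.50). The gene-level counts do not separate the secreted from the membrane form of Flt1. Within the NECs the balance moved more. Flt1 was 78.5% (77.1 to 79.8) in arterial-like, 71.1% (69.5 to 72.8) in venous-like and 55.2% (54.2 to 56.2) in capillary-like cells, and in the mitotic-like cells it was below Kdr, at 34.2% (30.7 to 37.9).

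Nrp1 made up 84.7% (84.3 to 85.2) of neuropilin UMIs in NECs and 72.8% (70.3 to 75.2) in TECs. The range was wider across vessel types, from 94.0% (92.5 to 95.2) in arterial-like through 86.7% (85.7 to 87.6) in capillary-like to 55.9% (53.6 to 58.1) in venous-like cells. Tie1 made up 60.4% (59.3 to 61.4) of Tie receptor UMIs in NECs and 77.9% (75.4 to 80.2) in TECs. In arterial- and venous-like NECs Tek and Tie1 were counted about equally, with Tie1 at 49.9% (46.8 to 52.9) and 49.8% (46.6 to 53.0), and in capillary-like cells Tie1 was 61.0% (58.7 to 63.2). Each of the 3 named TEC clusters had a Tie1 share of at least 71.1%. Such shares also occurred in NECs, at 76.1% (69.1 to 82.2) in HEV-like and 72.6% (66.2 to 78.4) in mitotic-like cells. An unnamed NEC cluster of 238 cells was at 72.9%, and the shallow cluster led by salivary genes at 76.3% on 76 Tie receptor UMIs.

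**Figure D4:**
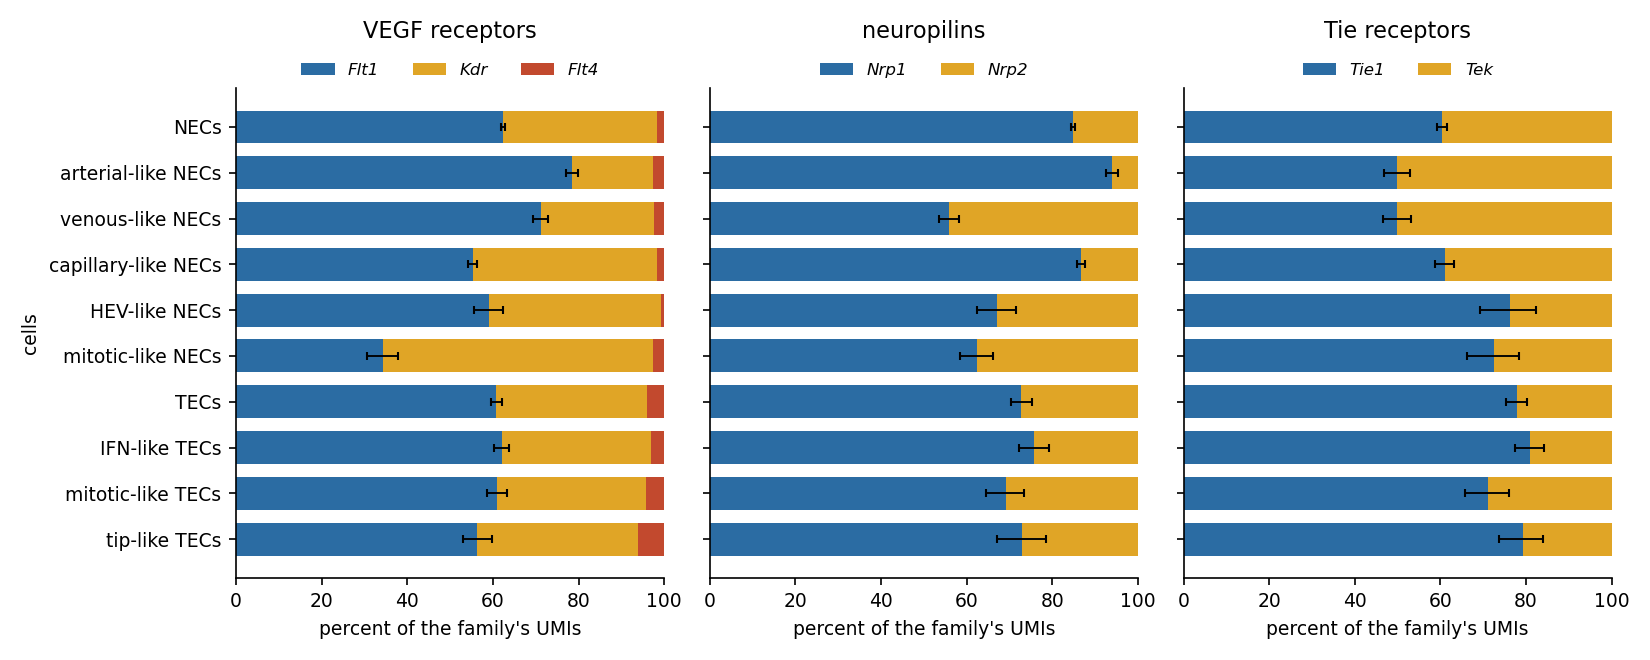
Percent of each family's UMIs by receptor in all NECs and TECs and in their named clusters, with bars for 95% intervals on the first receptor of each family. Flt1 is 62.4% in NECs and 60.8% in TECs, and Tie1 60.4% and 77.9%.

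Of the 261 TECs, 102 were IFN-like (led by the immune genes Ms4a6b, Ifit2 and Rsad2), 57 mitotic-like and 45 tip-like (with Adm, Esm1 and Cxcr4), and 57 shallow cells stayed unnamed as the fourth cluster (median 2198 UMIs). Aplnr differed most among them, at 185 CPM (165 to 206) in IFN-like, 186 CPM (166 to 208) in mitotic-like and 38.9 CPM (27.4 to 53.6) in tip-like cells, 4.75-fold lower in tip-like than in IFN-like cells. In the NECs at the finer resolution, Aplnr was not lower in tip-like cells, with 433 CPM (363 to 513) in the 59 tip-like cells. It stood at 369 CPM (302 to 447) in the 30 mitotic-like cells, an overlapping interval, and at 177 CPM in all NECs. No NEC cluster was named IFN-like there. Kdr and Flt1 were highest in the IFN-like cells (549 and 973 CPM) and stood at 327 and 489.8 CPM in tip-like and 353 and 619.7 CPM in mitotic-like cells. Tie1 was lowest in mitotic-like cells at 130.3 CPM (114 to 149) against 256 CPM (233 to 281) in IFN-like cells. Nrp2 (71.5 to 80.6 CPM), Tek (53.0 to 60.5 CPM) and Flt4 (43.6 to 52.6 CPM) hardly varied among the 3 named clusters. Nrp1 stayed at or below 253 CPM (230 to 277) in every TEC cluster, under the 278 CPM (232 to 331) of the lowest NEC cluster, with overlapping intervals.

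Across the 21 clusters of both libraries, the levels of Kdr and Nrp1 moved together (Pearson r of log2(CPM + 10) 0.90, and 0.92 over the 17 NEC clusters), as did Flt1 and Nrp1 (0.87 and 0.82). Nrp2 was nearest to Aplnr (0.65 and 0.75). Tek and Kdr were unrelated over the NEC clusters (r = -0.03). These values describe clusters that share a library and cells of 1 pool, so they carry no p. Among 6210 genes, the nearest patterns were Tmem204 (0.91) and Adgrl4 (0.90) for Kdr, Podxl (0.90) and Ptprg (0.89) for Flt1, Thrsp (0.96) and Mcf2l (0.94) for Nrp1 and Tshz2 (0.82) for Nrp2. Tek was most like Ptprb (0.94), the endothelial phosphatase that acts on it, then Jam2 (0.93). Tie1 was most like Gimap8 (0.90), while Flt4 and Aplnr had no close match, at 0.73 with Map1lc3b and 0.72 with Pcdh12.

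A list of 43 ligands, partners and targets of these receptors was read in the same way. Of the 40 that both tables list, 34 passed the minimum of 10 UMIs, 6 of them higher in TECs by 2-fold or more and 11 lower, and another 4 without a UMI in TECs. Their median log2 ratio was -0.51, with the 4 left out. The background over all genes is 11.2% higher and 26.0% lower. It counts genes without a UMI in TECs as lower, so the 4 belong with the 11 when set beside it. Ligands made up 5 of the 6 genes that were higher, with the 3 largest ratios. Others went the other way, since the ligands Vegfa and Sema3g were lower by 2-fold or more and all 4 genes without a UMI in TECs encode ligands. Pgf (placental growth factor), which binds FLT1, stood at 368 CPM in TECs against 5.71 CPM in NECs, log2 ratio 6.01. Angpt2, the TEK antagonist that ECs store, stood at 523 against 18.5 CPM, log2 ratio 4.82, and Apln, the ligand of APLNR, at 533 against 13.0 CPM, log2 ratio 5.35. In tumor cells with cancer markers and no Cdh5 or Pecam1 UMI (133 cells), Pgf, Angpt2 and Apln were at 2.25, 1.93 and 1.77 CPM. More transcript of these 3 ligands was thus measured in TECs beside less Flt1 and Tek transcript in CPM. Set against capillary-like NECs alone, 7 of 30 list members were higher in TECs and 6 lower by 2-fold or more. Their median log2 ratio was 0.02, beside -0.18 over all genes tested.

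Vegfa, the chief ligand of KDR, was low in ECs of both libraries (2.15 against 9.35 CPM, log2 ratio -2.12) and stood at 31.6 CPM in the cancer-marker cells and 27.2 CPM in the Epcam-positive cells of the normal library. Vegfd, Angpt1, Sema3c and Sema3d had no UMI in TECs. Against the level of 3 UMIs, 0.646 CPM, they were at least 2.59-, 2.23-, 6.52- and 6.88-fold lower than in NECs. Of the class 3 semaphorins, the neuropilin ligands, Sema3f was higher (221 against 68.5 CPM, log2 ratio 1.69), as was Sema3a (7.96 against 3.29 CPM, log2 ratio 1.28), and Sema3g was lower (25.4 against 102 CPM, log2 ratio -2.01). The plexin Plxna4 was also lower (9.26 against 24.2 CPM, log2 ratio -1.39). The phosphatase Ptprb was at 269 against 1104 CPM, log2 ratio -2.04, beside -1.74 (-1.93 to -1.56) for Tek. Ptprj, a phosphatase of KDR, had 1 UMI in TECs and 111 in NECs, a log2 ratio of -4.90 (-10.21 to -2.39). Gipc1, an adaptor of NRP1, was higher (74.7 against 31.3 CPM, log2 ratio 1.25).

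Among genes downstream of the receptors, 7 of the 8 listed had at least 10 UMIs, and 6 of the 7 were lower in TECs by 2-fold or more and 0 higher, beside 26.0% and 11.2% of all genes. They were Egr3 (2.37 against 72.0 CPM, log2 ratio -4.93), Nr4a1 (40.9 against 251 CPM, log2 ratio -2.62), Nfatc1 (11.8 against 38.0 CPM, log2 ratio -1.68), Rcan1 (log2 ratio -1.25), the shear-responsive factor Klf2 (679.7 against 1523 CPM, log2 ratio -1.16) and Foxo1 (50.8 against 106 CPM, log2 ratio -1.06). Egr3 and Nr4a1 are also immediate early genes, and among the 3 vessel types Egr3 ranged from 5.65 CPM in capillary-like to 77.1 CPM in arterial-like cells. Counted per cell without scaling, TECs held more Klf2 (12.1 against 5.34 UMIs) and Foxo1 (0.904 against 0.372). The same holds for Rcan1 (0.709 against 0.333) and Nfatc1 (0.211 against 0.133), while Egr3 (0.0421 against 0.253) and Nr4a1 (0.728 against 0.880) stayed lower.

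**Figure D5:**
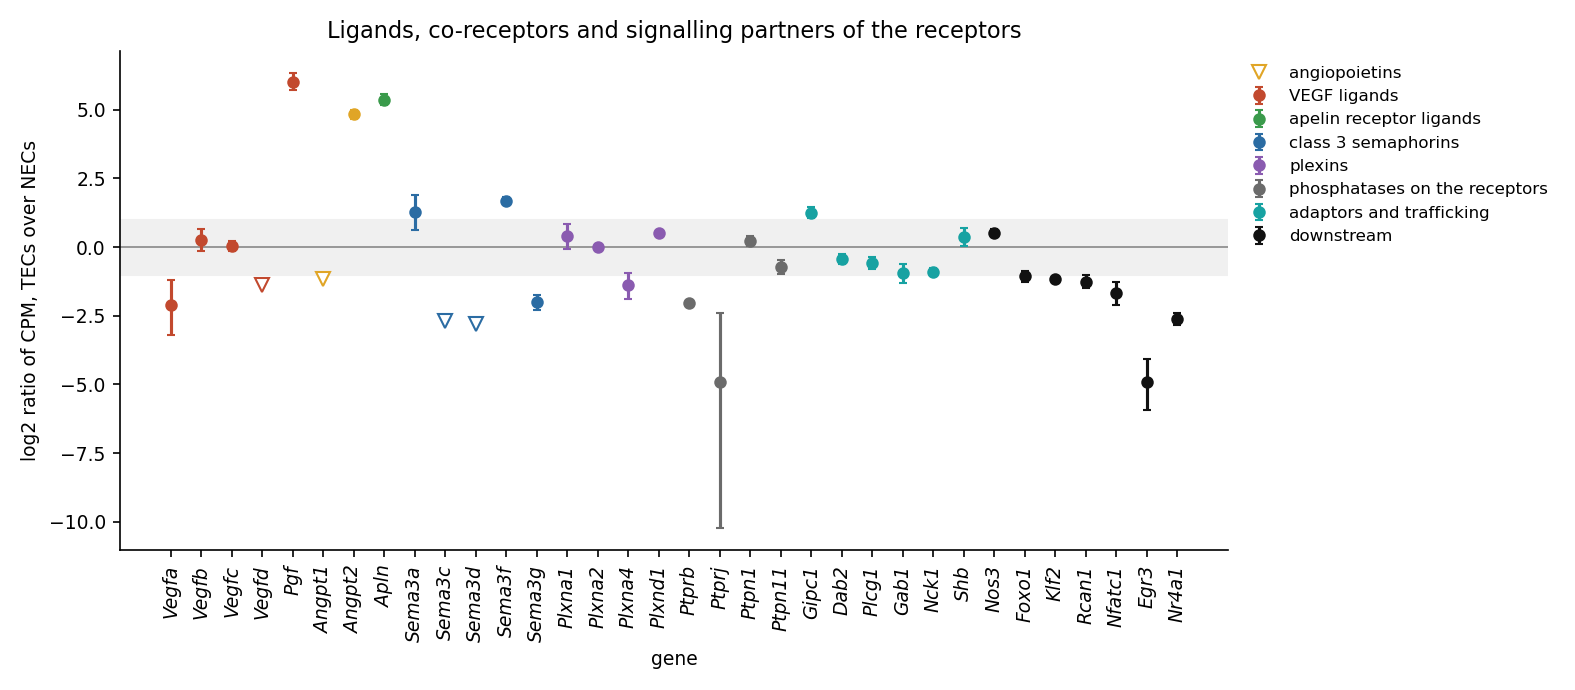
log2 ratios of CPM, TECs over NECs, for the 34 genes of the list with at least 10 UMIs, coloured by role, with bars for 95% counting intervals and grey for differences under 2-fold. Open triangles mark the 4 genes without a UMI in TECs, drawn at the ratio against 3 UMIs, and Pgf, Angpt2 and Apln stand highest at 6.01, 4.82 and 5.35.

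In the tumor clusters, the ligands were distributed otherwise than the receptors. Pgf stood at 1389.5 CPM in tip-like against 67.8 in IFN-like and 93.7 in mitotic-like TECs, and is among the genes that led the tip-like cluster although it took no part in the clustering. Apln stood at 1179, 307 and 421 CPM in the same order, so that the cluster with the most Apln had the least Aplnr in CPM. That Aplnr level rests on 37 UMIs in 13 of 45 cells. Angpt2 was high in all 3, between 420.1 and 825 CPM. The mitotic-like NECs, whose cluster also held tip cell markers, held more Apln (226 CPM) and Pgf (90.1 CPM) than all NECs (13.0 and 5.71 CPM). Aplnr was also highest in that cluster. Of the 226 Apln UMIs of all NECs, 133 were in these 88 cells.

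Among the vessel types, 13 of 31 list members with enough UMIs were higher and 3 lower by 2-fold in arterial-like than in capillary-like NECs, beside 9.18% and 8.95% of all genes tested. In venous-like against capillary-like cells 13 of 31 were higher and 2 lower, beside 11.1% and 8.77%. Between arterial- and venous-like cells, 7 of 33 were higher and 4 lower, beside 8.71% and 10.8%. Sema3a and Sema3d had no UMI in arterial-like cells and are not among the 4, although the 10.8% counts such genes as lower. Sema3g was highest in arterial-like cells, at 580.4, 60.4 and 6.61 CPM in arterial-, capillary- and venous-like cells, and Sema3a and Sema3d in venous-like cells, at 23.6 and 33.1 CPM. Vegfc stood at 303 CPM in arterial-like, 67.1 in venous-like and 17.2 in capillary-like cells, the reverse of Kdr. Vegfa was likewise highest in arterial-like cells, at 23.3 CPM, and Apln was at 0.456 CPM there on 1 UMI. Rcan1 stood at 381 CPM in venous-like cells against 64.8 and 24.1 CPM in arterial- and capillary-like cells. Gab1 was ordered from venous-like at 47.7 through capillary-like at 23.5 to arterial-like at 9.58 CPM, the order of Nrp2.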

How the data were processed

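The deposited matrices hold UMI counts per gene and cell that the authors made with Cell Ranger on mm10, as the submitters' processing notes and the study's methods name them, with versions and annotation not given in the sources used here. Whether counting used strand is likewise not given. The counts were used as deposited, 17641 genes in the normal table and 15644 in the tumor table. Ratios of TECs to NECs used only genes that both tables list, and comparisons within a library used all genes of its table.

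Barcodes were kept as ECs by the thresholds of the report. They left 8914, 6924, 5200 and 4940 of 9047 barcodes in the normal library (genes, mitochondrial share, the 4 marker genes, Cdh5 or Pecam1) and 704, 484, 456, 312 and 261 of 704 in the tumor library, where the last step compares endothelial with cancer markers. No doublet caller was run, and leaving out the deepest 5% of cells stood in as an alternative. NECs ranged from 500 to 29715 UMIs and TECs from 510 to 55669, and the 2976.5 and 16989 median UMIs set the precision of single-cell shares.

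UMIs were summed over cells and scaled to 1000000 (CPM), with exact Poisson 95% intervals. For ratios the exact binomial interval, conditional on the summed UMIs, was used, and for shares the Clopper-Pearson interval. All cover counting error only. With 1 library per group no test was possible and no p is given. A gene was called past 2-fold if it had at least 10 UMIs over both groups, and levels without a UMI were read against 3 counts. Shares were taken after thinning to 1900 UMIs, which left out 1109 NECs and 22 TECs. Cells were clustered with Seurat 5.3.0 in R 4.3.3 (4000 variable genes, 20 PCs, resolution 0.8) without the 8 receptors and the 43 pathway genes. A cluster was named from marker lists when at least 3 markers were in 25% of its cells at 2-fold or more and led over every other list, with at least 1 among its top 10 genes. The clusters rest on the same cells as the levels, and their names were rebuilt here. Other steps used Python 3.11.15, numpy 2.4.6, scipy 1.17.1 and pandas 2.3.3.

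The named genes were the 8 receptors, pathway genes past 2-fold with at least 20 UMIs in one group, for each receptor the nearest genes by Pearson r over clusters (at least 50 CPM in a cluster), and leading genes of clusters, of which 1 is not reported here. The members, lists and rules were chosen with earlier results of these data known. On simulated counts for TECs over NECs (13061 genes), 98% of genes set 3-fold lower and 100% of those set 3-fold higher were past 2-fold. Of unchanged genes, 3.72% were. The interval held the true ratio for 95.9% of unchanged and 92.5% of changed genes. These counts were drawn from the Poisson model that the intervals assume, so they cannot show the spread between cells or libraries.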

Additional observations from a re-analysis of the deposited data

Results flagged for a closer look

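Nrp2 stood at 156 CPM in the 133 cells of the tumor library that held cancer markers and no UMI of Cdh5 or Pecam1, cells outside the TECs of the report's comparisons. The signal lies outside the main measurement and rests on 973 UMIs, and 76.7% of these cells held a Nrp2 UMI (25.8% after thinning to 1900 UMIs). TECs stood at 76.0 CPM and the Epcam-positive cells of the normal library at 5.18 CPM. The other 7 receptors had at most 11 UMIs in the same 133 cells.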

How the results depend on the processing

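No paired analysis was possible because each condition has 1 library, and none could be left out. Between TECs and NECs, 5 of 8 receptors were lower under most settings. The count was 4 as a mean over cells (Nrp2 at -0.97), 6 against capillary-like NECs alone and 2 at 3-fold. Of 1687 genes with a mean of 100 CPM or more, 17.1% were lower by 2-fold or more against capillary-like NECs. Shares of all genes under other settings of cells, clusters or fold are not given here, so those counts stand without a background. With no requirement for Cdh5 or Pecam1 the count of lower receptors was 7. That setting also dropped the comparison with cancer markers, so its tumor side held 456 cells, those with cancer markers among them. Counted per cell without scaling, 0 receptors were lower and 3 higher, beside 6.65% and 81.0% of all genes. The log2 ratios turned to 0.89 for Kdr, 0.88 for Flt1, 0.90 for Nrp2 and 0.60 for Tek, by the 2.34 that this scaling adds to every gene. Those of Tie1, Flt4 and Aplnr, within 2-fold in CPM, turned to 1.81, 2.11 and 2.13. With cells sorted by their own markers, 2 receptors were lower in arterial than in capillary cells and 0 in venous than in capillary cells. Nrp2 passed 2-fold between venous- and capillary-like NECs (1 higher) as a mean over cells and after thinning, and at 1.5-fold 1 was higher and 5 lower. With 30 PCs, 1 receptor, Flt4, was higher in arterial- than in venous-like cells. Of 304 alternative values of single receptors, 199 lay within the counting interval of the value reported. The unscaled count, the scaling to 6 endothelial genes, the finer clusters and 2 settings that leave clusters out were chosen after the data had been seen. Depth limits low values, such as those of Flt4 and of small clusters. The annotation, doublets and RNA from lysed cells were not tested, and animals within a pool cannot be told apart.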
